A study of Mus musculus with 17 samples.

Results

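The accessible chromatin around 37 nuclear genes of the tricarboxylic acid (TCA) cycle and the respiratory chain was described in mouse bone marrow-derived macrophages (BMDMs). The genes were chosen by name, out of 21938 protein-coding genes in the GENCODE M21 annotation of mm10 (GRCm38), and their chromatin was taken as all ATAC-seq peaks within 10 kb of each gene body. Of the 37 genes, 17 are counted as TCA enzymes, with the 4 subunits of succinate dehydrogenase and the cytosolic enzymes Idh1 and Mdh1 among them. The other 20 encode subunits of the respiratory chain or cytochrome c. ATAC-seq marks open DNA, because the Tn5 transposase inserts sequencing adapters where DNA is free of nucleosomes.

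Marrow of male C57Bl6/J mice aged 6 to 12 weeks was differentiated for 7 days in L929-conditioned medium, which supplies the macrophage growth factor M-CSF. Bacterial lipopolysaccharide (LPS) was then added at 100 ng/ml and cells were taken after 1 or 18 h, beside cells that received none (0 h). Wild-type (WT) mice were littermates of mice lacking Nur77 in the whole body (KO), the nuclear receptor that Nr4a1 encodes. The KO line goes back to a cross of loxP-flanked Nr4a1 with Cre under the CMV promoter and was bred on without Cre, although the deposited genotype tag of the KO samples reads cre. There were 3 peak lists in 5 of the 6 groups and 2 in WT at 1 h, 1 of them named replicate 1-2. Nothing in the labels says that the samples of a group came from separate mice, so the p-values below measure the spread between these 17 samples, which may be technical.

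The TCA cycle oxidises acetyl-CoA in the mitochondrial matrix and hands electrons to the respiratory chain, whose complexes I, III and IV pump protons while complex II, succinate dehydrogenase, belongs to both. In macrophages given LPS the cycle is known to be interrupted at isocitrate dehydrogenase and at succinate dehydrogenase, and citrate, itaconate and succinate build up while ATP comes more from glycolysis. All genes described here lie in the nucleus, and their promoters are of the kind that most cell types keep open.

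Peak lists hold no read counts per site, so every value below is the rank of a peak inside its own list. Each list was reduced to its best 24389 peaks by p-value, the number in the shortest list (WT 1 h replicate 1-2), and these are called matched peaks. Rank 1 is the strongest peak. Where lists of 2 groups are said not to overlap, the share of all promoters or sites that separate in this way is not given, so such a statement is no test. A promoter peak has its summit within 1 kb of an annotated start of a protein-coding transcript of the gene. For tests the rank was turned into a rank score, log2((24389 + 1)/rank), which is 0 where a gene has no matched peak and rises by 1 when the rank number is divided by 2. Depth, recovered from the peak statistics as background reads per kb, ranged from 0.382 to 9.75 over the lists and was lowest in WT 1 h replicate 1-2, in which the weakest peaks had a pileup of 3 reads. The 5 lists at 1 h ranged from 0.382 to 4.14 and the 6 lists at 0 h from 0.72 to 9.75, so depth moved with LPS time. At 18 h depth was 4.62 to 8.38 in the WT lists and 1.10 to 1.76 in the KO lists, so that depth and genotype cannot be told apart there. KO 18 h replicate 1 stood apart by its narrow peaks, with a median width of 167 bp against 338 to 1240 bp in the other lists. All 10 macrophage markers examined had a matched promoter peak in 11 to 17 lists, whereas 10 of 13 markers of other cell types had none, and the exceptions were Ms4a1, Col1a1 and, in all lists, Cdh5. At Nr4a1 itself the best matched peak of the gene ranked 3595 to 12155 in the WT lists and 6613 to 18588 in 7 KO lists, with none in the other 2. The deleted part of the gene is not given in the sources used here, so these peaks do not check the genotype.

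The promoters were open in nearly every list. Of the 37 genes, 28 had a matched promoter peak in all 17 lists, 37 in at least 2, and 16 had one among the best 10000 peaks of every list. In the full deposited lists 32 genes had a promoter peak in all 17. A single list held promoter peaks of 30 to 36 members, with a median of 34. For comparison, 6873 of all 21938 genes had one in all 17 lists, and a list held promoter peaks of 37.4 to 47.5% of all genes. The median rank of a gene over the 17 lists had a median of 4961 among TCA enzymes and 7131 among respiratory chain subunits, against 7449.5 over the 11169 genes with a promoter peak in at least 2 lists. With complex II counted in the respiratory chain, the medians were 2448.5 among 13 TCA enzymes and 7050.25 among 24 respiratory chain subunits. The genes were chosen, so this difference carries no test. At 11 of the 37 genes (Idh1, Mdh1, Mdh2, Sdha, Sdhc, Sdhd, Ndufs1, Ndufs3, Ndufs6, Ndufb5 and Cox4i1) another gene starts within 1 kb of the first start on the opposite strand, and a peak there cannot be assigned to either. At Idh1 the better peak lay far inside the gene in most lists, as described further on. The plot of promoter rank scores shows every gene in every list.

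**Figure D1:**
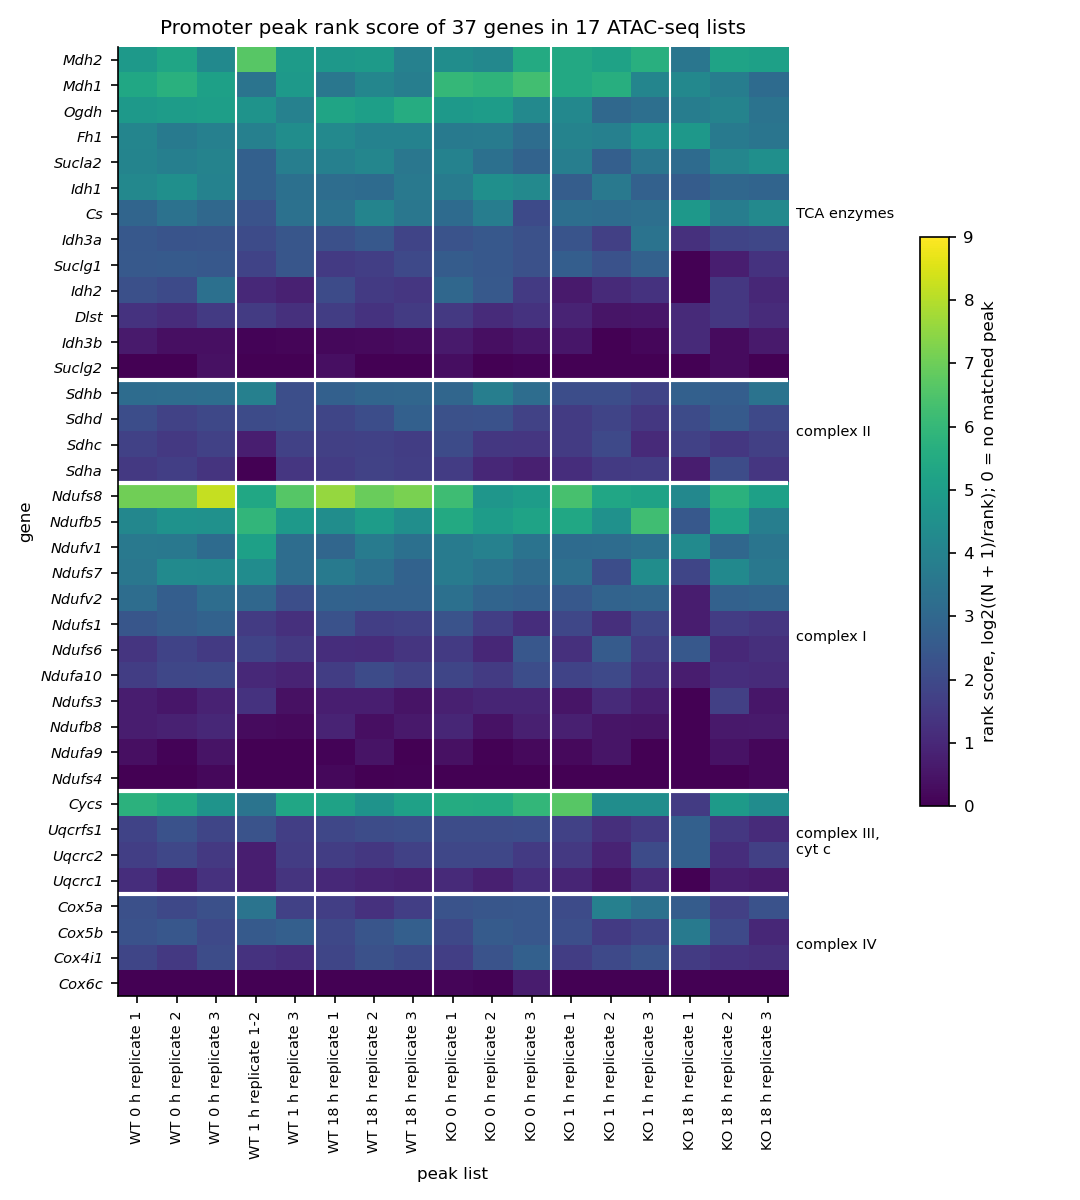
Promoter rank score, log2((24389 + 1)/rank), of each of the 37 genes (rows, grouped by role and ordered by mean score) in each of the 17 peak lists (columns, 6 groups separated by white lines). Colour runs from 0, no matched promoter peak, to the highest score at Ndufs8, whose rank in WT 0 h replicate 3 was 83, and Suclg2, Ndufs4 and Cox6c stay near 0 across all groups.

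Among TCA enzymes the strongest promoter was that of Mdh2 (ENSMUSG00000019179.10, chr5:135778480-135790398, plus strand), the mitochondrial malate dehydrogenase, which closes the cycle. WT lists ranked it 836, 622 and 1268 at 0 h, 240 and 801 at 1 h and 886, 813 and 1576 at 18 h, and KO lists 1141, 1334 and 544 at 0 h, 562, 668 and 475 at 1 h and 2111, 658 and 709 at 18 h. The ranks lay between 240 and 2111, and the lists at 1 h and at 18 h each overlapped with those at 0 h. Its start lies 95 bp from that of Styxl1 on the opposite strand, so 1 peak stands for both genes. The weakest was that of Suclg2 (ENSMUSG00000061838.7, chr6:95473009-95718800, minus strand), the GTP-forming subunit of succinyl-CoA ligase. In 6 of the 17 lists it had a matched peak, which ranked 18467 in WT and 19307 and 22922 in KO at 0 h, 18991 in WT at 18 h, and 20443 and 24389 in KO at 18 h, and at 1 h no list had one. In the full lists 14 of 17 held a peak there. Its partner subunits differed, with median ranks of 1707 at Sucla2, the ATP-forming subunit, and 5022 at Suclg1, the subunit that both forms share.

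Of the remaining TCA enzymes, Fh1 (fumarase) had a median rank of 1598, Cs (citrate synthase) of 2362, Idh3a of 4961 and Dlst of 9859, each with a matched peak in all 17 lists. Idh3b (ENSMUSG00000027406.12, chr2:130279309-130284547, minus strand), the regulatory subunit of the NAD-dependent isocitrate dehydrogenase, was far weaker than its catalytic partner Idh3a. Its ranks were 15581, 18835 and 18938 at 0 h, 23185 and 22197 at 1 h and 21580, 20898 and 19845 at 18 h in WT, and 15567, 18806 and 16815 at 0 h, 16655, no peak and 21740 at 1 h and 11542, 20443 and 15381 at 18 h in KO. Its best rank, 11542, was in KO 18 h replicate 1, whose peaks are narrow. The 2 WT lists at 1 h ranked it behind every WT list at 0 h, and the KO lists overlapped.

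Within complex II, which passes electrons from succinate to ubiquinone, the Sdhb promoter (ENSMUSG00000009863.14, chr4:140961203-140979193, plus strand) was the strongest. Sdhb carries the iron-sulfur clusters of the complex. The Sdhb promoter ranked 2674, 2616 and 2584 at 0 h, 1617 and 5434 at 1 h and 3635, 3172 and 3109 at 18 h in WT, and 3098, 1678 and 2623 at 0 h, 5639, 5574 and 6785 at 1 h and 3640, 3824 and 2285 at 18 h in KO. The 3 KO lists at 1 h lay beyond all 6 lists at 0 h, while WT at 1 h had both the best and a poor rank, and the difference at 1 h did not pass the test (-0.75 ± 0.27 (SE), adjusted p = 0.0721). It passed when the shallowest list, WT 1 h replicate 1-2, was left out (-1.19 ± 0.21 (SE), adjusted p = 0.00486). The weakest of the 4 was Sdha (ENSMUSG00000021577.14, chr13:74322254-74350280, minus strand), the flavoprotein that oxidises succinate. In the WT lists the Sdha promoter ranked 8594, 7594 and 9510 at 0 h, no peak and 9052 at 1 h and 7987, 7202 and 7673 at 18 h, and in the KO lists 8042, 12308 and 13956 at 0 h, 10731, 8384 and 7958 at 1 h and 14937, 5717 and 9082 at 18 h. Its only missing peak was in the shallowest list, WT 1 h replicate 1-2. Sdhc and Sdhd, the membrane anchors, had median ranks of 7443 and 5925.

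Complex I, the NADH dehydrogenase, held both extremes of the whole set. Ndufs8 (ENSMUSG00000059734.7, chr19:3908863-3912774, minus strand), an iron-sulfur subunit of the arm that feeds electrons to ubiquinone, had the strongest promoter of all 37 genes. WT lists ranked it 183, 184 and 83 at 0 h, 596 and 249 at 1 h and 129, 197 and 168 at 18 h, and KO lists 334, 931 and 779 at 0 h, 294, 602 and 675 at 1 h and 1321, 458 and 709 at 18 h. At 0 and 18 h all WT lists ranked it from 83 to 197 and all KO lists from 334 to 1321, so the genotypes did not overlap at those times, whereas at 1 h they did. The KO lists at 18 h were also the shallower ones, and at 0 h the depth of the KO lists was 0.72 to 7.65, against 5.11 to 9.75 in WT. The difference of KO against WT over all times did not pass at Ndufs8, as given further on. Ndufs4 (ENSMUSG00000021764.8, chr13:114287795-114388258, minus strand), an accessory subunit whose loss causes mitochondrial disease, had the weakest. It had a matched peak in 4 lists only, ranking 21325 in WT at 0 h, 21200 and 23241 in WT at 18 h, and 22025 in KO at 18 h. In the full lists 14 of 17 held a peak there.

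The stretches upstream of these promoters are shown to set the strongest next to the weakest. They are taken from the RefSeq promoter table (GRCm38.p6), 5′ to 3′ on the gene's strand, limited to bases within 250 bp of the RefSeq start that no annotated exon covers, and capitals mark a match to any of the 7 motifs named further on.
Ndufs8 (chr19:3912775-3913024, minus strand): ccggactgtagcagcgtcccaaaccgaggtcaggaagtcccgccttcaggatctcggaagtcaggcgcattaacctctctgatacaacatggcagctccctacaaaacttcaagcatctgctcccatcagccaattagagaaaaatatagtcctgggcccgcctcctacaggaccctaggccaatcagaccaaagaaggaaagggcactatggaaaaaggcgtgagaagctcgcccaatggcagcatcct
Ndufs4 (chr13:114388259-114388344, minus strand): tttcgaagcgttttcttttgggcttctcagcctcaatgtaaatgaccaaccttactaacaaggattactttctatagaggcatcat
The Ndufs8 stretch of 250 bases held 9 CpG and 53.2% G and C, and the Ndufs4 stretch of 86 bases held 2 CpG and 38.4% G and C. They differ in position, 250 to 1 and 250 to 165 bases before the RefSeq start. The ratio of observed to expected CpG was lower at Ndufs8, 0.517 against 0.647 at Ndufs4. Over 300 bases of the RefSeq promoter it was 0.532 against 0.785. Neither printed stretch had a match to a motif.

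Of the other 10 complex I subunits, Ndufa9 (ENSMUSG00000000399.10, chr6:126821721-126849136, minus strand) was also weak, with a matched peak in 12 lists. Its ranks were 19029, 22693 and 17456 at 0 h, no peak in any list at 1 h and 23190, 17413 and no peak at 18 h in WT, and 18464, 23586 and 20689 at 0 h, 20622, 17011 and no peak at 1 h and no peak, 17942 and 22025 at 18 h in KO. The ranks lay between 17011 and 23586, close to the end of the lists. The remaining 9 had a peak in all 17 lists, with median ranks from 838 at Ndufb5 and 2045 at Ndufs7 to 14583 at Ndufs3 and 15965 at Ndufb8.

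Among complex III subunits and cytochrome c, the strongest promoter was that of Cycs (ENSMUSG00000063694.5, chr6:50562563-50566538, minus strand), the mobile electron carrier that also triggers apoptosis when released. The Cycs promoter ranked 447, 548 and 963 at 0 h, 2229 and 601 at 1 h and 666, 1000 and 680 at 18 h in WT, and 526, 538 and 396 at 0 h, 241, 1155 and 1138 at 1 h and 8178, 813 and 1161 at 18 h in KO. The rank of 8178 in KO 18 h replicate 1 was the poorest, and the other 16 lists lay between 241 and 2229. The weakest was Uqcrc1 (ENSMUSG00000025651.14, chr9:108936633-108949623, plus strand), a core subunit of complex III. In the WT lists the Uqcrc1 promoter ranked 10876, 14649 and 10109 at 0 h, 14418 and 9462 at 1 h and 11742, 12952 and 14170 at 18 h, and in the KO lists 11642, 13993 and 10715 at 0 h, 12675, 17011 and 11553 at 1 h and no peak, 14306 and 15381 at 18 h. At 18 h the 3 WT lists ranked it ahead of the 3 KO lists, of which 1 had no matched peak, while at 0 and 1 h the genotypes overlapped, and here too the KO lists at 18 h were the shallower ones. Uqcrc2 and Uqcrfs1, the Rieske protein, had median ranks of 7811 and 6476.

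In complex IV, cytochrome c oxidase, Cox5a (ENSMUSG00000000088.7, chr9:57521274-57532426, plus strand) had the highest mean rank score. WT lists ranked it 5341, 6254 and 5255 at 0 h, 2229 and 7345 at 1 h and 7730, 10015 and 7673 at 18 h, and KO lists 5003, 4542 and 4535 at 0 h, 5847, 1598 and 2355 at 1 h and 4006, 7450 and 5024 at 18 h. At 1 h the lists spread from 1598 to 7345, and at the other times from 4006 to 10015. Cox5b and Cox4i1 were similar, with median ranks of 5056 and 6658. Cox6c (ENSMUSG00000014313.15, chr15:35925886-35938246, minus strand) had a matched peak in 4 lists, all at 0 h, ranking 24147 in WT and 22570, 23586 and 15292 in KO. In the full lists 13 of 17 held a peak at Cox6c.

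The first comparison asked how the promoters stood 1 h after LPS. The rank score of 5 members fell, 4 of them TCA enzymes (Idh1, Idh2, Ogdh and Mdh1) and 1 a complex I subunit (Ndufa10), and none rose in this fit. These 5 are 13.5% of the 37, near the background: of all 11169 promoters tested, 13.9% were called lower and 3.89% higher (limma, adjusted p under 0.05). The share called lower rested on single lists, and fell to 6.51% when WT 1 h replicate 1-2 was left out, to 8.52% for KO 0 h replicate 1, to 8.95 and 6.98% for replicates 1 and 3 of WT at 0 h, and rose to 23.6% for KO 18 h replicate 1. The promoter scores of all genes shifted by a median of -0.28 at 1 h, and those of the 37 members by -0.24. In a whole culture a lower rank cannot be told apart from fewer cells with the site open. Among the 17 TCA enzymes 4 were called, with the cytosolic Idh1 and Mdh1 among them, and among the 20 respiratory chain subunits 1, a split that other settings changed. Further subunits were lower in some, Cox4i1 and Cox6c with all deposited peaks (adjusted p = 0.0214 and 0.029), Ndufs1 in 3 settings (adjusted p 0.0414 to 0.0496), and Ndufb8 and Ndufv2 in 1 each. Of the TCA enzymes, Sdhb was also lower with all deposited peaks (-1.17, adjusted p = 0.0212). Depth differed between the times, and with depth as a covariate 1 of the 5 calls, Idh1, passed (-1.46), and the promoters called lower over all genes numbered 301 instead of 1557. The differences of the other 4 with the covariate were -1.18 at Idh2, -1.03 at Mdh1, -0.70 at Ogdh and -0.58 at Ndufa10, and the median over all genes was -0.22. The standard error of Mdh1, for example, was 0.42 with it and 0.32 without.

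At 18 h the score of 4 members was lower, and again none rose in this fit. All 4 are counted as TCA enzymes (Mdh1, Suclg1, Idh1 and Idh2), and Mdh1 and Idh1 are cytosolic. With depth as a covariate the same 4 were lower and Cs was higher. They make 10.8% of the 37, beside 9.05% called lower and 3.06% called higher over all promoters (4.71% called higher without KO 18 h replicate 1), with a median difference of -0.20 in the members and -0.14 over all genes. No respiratory chain subunit passed at 18 h in this fit, where the smallest adjusted p among the 20 was 0.0856. In other settings 3 passed as lower, Cox4i1 and Cox6c with all deposited peaks (-0.66, adjusted p = 0.0413, and -0.79, adjusted p = 0.0178) and Ndufs1 without KO 0 h replicate 3 (-0.74, adjusted p = 0.0465). Whether TCA enzymes and respiratory chain subunits differ in this was not tested. Of the 3 tested promoters among markers of other cell types, that of the B cell gene Ms4a1 was higher at 18 h (0.86 ± 0.14 (SE), adjusted p = 0.00126), and the other 2 had differences of -0.18 and -0.21. Of the 10 macrophage markers 1 was higher and 2 were lower at 18 h, and 2 were higher and 3 lower at 1 h. The part of these markers in the differences was not tested.

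**Figure D2:**
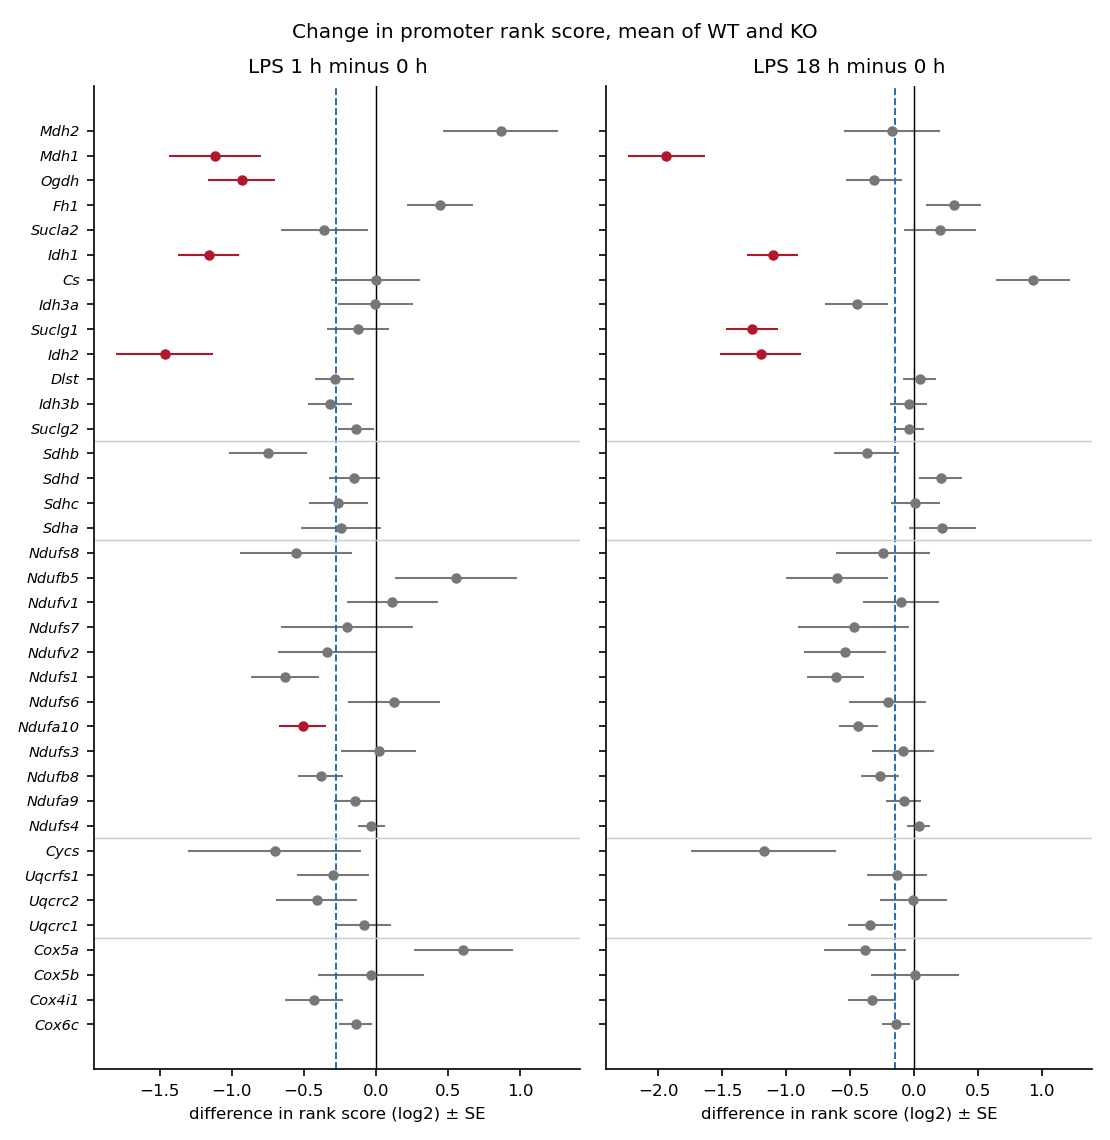
Difference in promoter rank score (log2, horizontal axis) between LPS and 0 h for the 37 genes, averaged over WT and KO, with its standard error as a bar. Red marks adjusted p under 0.05, grey lines separate the 5 roles and the dashed blue line is the median over all 11169 promoters (-0.28 at 1 h and -0.14 at 18 h), and all red points lie to the left of it.

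The largest difference was at Mdh1 (ENSMUSG00000020321.15, chr11:21556787-21572367, minus strand), the cytosolic malate dehydrogenase of the malate-aspartate shuttle. Its ranks were 588, 465 and 701 at 0 h, 2229 and 838 at 1 h and 2043, 1377 and 1694 at 18 h in WT, and 381, 418 and 315 at 0 h, 562, 491 and 1421 at 1 h and 1321, 1738 and 2733 at 18 h in KO. All 6 lists at 18 h ranked it behind all 6 lists at 0 h, in both genotypes. At 1 h every list stood behind every list at 0 h of its own genotype. The difference was -1.93 ± 0.30 (SE), adjusted p = 0.00105 at 18 h, or a 3.82 times larger rank number, and the exact permutation test gave 0.005, the smallest p that this design allows. At 1 h it was -1.12 ± 0.32 (SE), adjusted p = 0.0302, and it did not pass without WT 1 h replicate 1-2 (-0.76, adjusted p = 0.16), nor without any 1 of WT 0 h replicates 1 and 2, KO 0 h replicates 1 and 3 and KO 1 h replicate 3 (adjusted p 0.0523 to 0.0632). The summits lay 298 to 386 bp inside the gene, past the start of Wdpcp, a planar cell polarity gene that begins 132 bp inside Mdh1 on the opposite strand, so here too 1 peak stands for both genes.

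Suclg1 (ENSMUSG00000052738.14, chr6:73248382-73276911, plus strand), the shared subunit of succinyl-CoA ligase, had the second largest difference at 18 h. The Suclg1 promoter ranked 4322, 4125 and 4367 at 0 h, 6959 and 4572 at 1 h and 8497, 7738 and 6173 at 18 h in WT, and 4015, 4369 and 5227 at 0 h, 3813, 5022 and 3527 at 1 h and no peak, 14306 and 9746 at 18 h in KO. Here too the lists at 18 h and at 0 h did not overlap. The difference was -1.27 ± 0.20 (SE), adjusted p = 0.00126 at 18 h (exact permutation p = 0.005) and -0.13 ± 0.22 (SE), adjusted p = 0.712 at 1 h. In WT the score changed by -0.79 and in KO by -1.74, of which KO 18 h replicate 1 had no matched peak, and the difference between the genotypes did not pass (-0.94 ± 0.41 (SE), adjusted p = 0.742).

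Idh2 (ENSMUSG00000030541.16, chr7:80094846-80115392, minus strand) encodes the mitochondrial NADP-dependent isocitrate dehydrogenase, which feeds the antioxidant systems of the organelle. In the WT lists the Idh2 promoter ranked 5341, 6031 and 2422 at 0 h, 11828 and 13626 at 1 h and 5876, 8498 and 9157 at 18 h, and in the KO lists 3018, 4221 and 8355 at 0 h, 15633, 11685 and 9793 at 1 h and no peak, 8892 and 12164 at 18 h. All 5 lists at 1 h lay behind all 6 at 0 h. The differences were -1.46 ± 0.34 (SE), adjusted p = 0.0112 at 1 h (exact permutation p = 0.005) and -1.20 ± 0.32 (SE), adjusted p = 0.0249 at 18 h (exact permutation p = 0.01). In 4 lists at 0 or 1 h, 1 of them a KO list at 0 h, the summit lay 553 to 712 bp from the start. With promoters cut at 500 bp neither time passed. The differences were then -1.45 ± 0.50 (SE), adjusted p = 0.0645 at 1 h and -0.94 ± 0.47 (SE), adjusted p = 0.238 at 18 h. At 18 h it also did not pass without any 1 of WT 0 h replicate 3, WT 18 h replicates 2 and 3 and KO 0 h replicates 1 and 2 (adjusted p 0.055 to 0.0655).

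At Idh1 (ENSMUSG00000025950.16, chr1:65158616-65186500, minus strand), the cytosolic NADP-dependent isocitrate dehydrogenase, the call rested on a peak inside the gene. WT lists ranked it 1320, 1092 and 1526 at 0 h, 3595 and 2449 at 1 h and 2616, 2768 and 1957 at 18 h, and KO lists 1838, 1104 and 1288 at 0 h, 3888, 1978 and 3527 at 1 h and 4006, 3038 and 3268 at 18 h. The lists at 0 h did not overlap with those at 1 h or at 18 h, and the differences were -1.16 ± 0.21 (SE), adjusted p = 0.00316 and -1.10 ± 0.20 (SE), adjusted p = 0.00294 (exact permutation p = 0.005 for each). In 10 of the 17 lists, however, the better peak had its summit more than 7 kb inside the gene, within 1 kb of an internal annotated start, in 5 lists the peak at the first start was the better one, and in 2 they tied. The peak at the first start ranked 3470, 3608 and 3953 in WT at 0 h, 4204 and 2449 at 1 h and 3936, 2768 and 2488 at 18 h, and 3252, 2835 and 1288, then 3888, 1978 and 3527, then 4006, 5717 and 3707 in KO. Taken alone, the first start differed by -0.10 (exact permutation p = 0.74) at 1 h and -0.33 (exact permutation p = 0.385) at 18 h, and the internal peak by -1.17 (exact permutation p = 0.01) and -1.09 (exact permutation p = 0.005), tests that were added after seeing the data. No difference was detectable at the first start, and the lower rank belonged to the internal site. Its best summit lay 8106 to 8123 bp from the first start in the 6 lists at 0 h, 7241 to 7306 bp in the 5 lists at 1 h and 8055 to 8229 bp in the 6 lists at 18 h, so that at 1 h another summit stood for it. With promoters cut at 500 bp neither time passed, at adjusted p of 0.931 and 0.459. None of the other 36 genes had its best peak more than 1 kb from its first start in any list.

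Ogdh (ENSMUSG00000020456.17, chr11:6291633-6356642, plus strand) encodes the E1 subunit of the 2-oxoglutarate dehydrogenase complex, a rate-controlling step of the cycle. Its ranks were 826, 773 and 733 at 0 h, 979 and 1558 at 1 h and 636, 725 and 509 at 18 h in WT, and 832, 768 and 1288 at 0 h, 1314, 2994 and 2482 at 1 h and 1748, 1497 and 2285 at 18 h in KO. At 1 h the difference was -0.93 ± 0.23 (SE), adjusted p = 0.0172 (exact permutation p = 0.005), and in each genotype every list at 1 h stood behind every list at 0 h. Without WT 1 h replicate 3 the adjusted p was 0.0633. At 18 h the score changed by 0.33 in WT and -0.95 in KO, and the difference between them did not pass (-1.29 ± 0.44 (SE), adjusted p = 0.733).

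Ndufa10 (ENSMUSG00000026260.12, chr1:92439010-92473860, minus strand), an accessory subunit of complex I, passed at 1 h by a narrow margin. The Ndufa10 promoter ranked 7818, 6410 and 6348 at 0 h, 11828 and 12997 at 1 h and 7899, 5819 and 7143 at 18 h in WT, and 6550, 8301 and 5637 at 0 h, 6968, 6174 and 9793 at 1 h and 14937, 10733 and 11321 at 18 h in KO. The difference was -0.51 ± 0.16 (SE), adjusted p = 0.047 (exact permutation p = 0.045). The score changed by -0.86 in WT and by -0.15 in KO, and the depth of the WT lists at 1 h was 0.382 and 1.61 background reads per kb. It kept its call in 8 of 28 alternative settings, against 28 of 28 for Mdh1 and Suclg1 at 18 h.

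**Figure D3:**
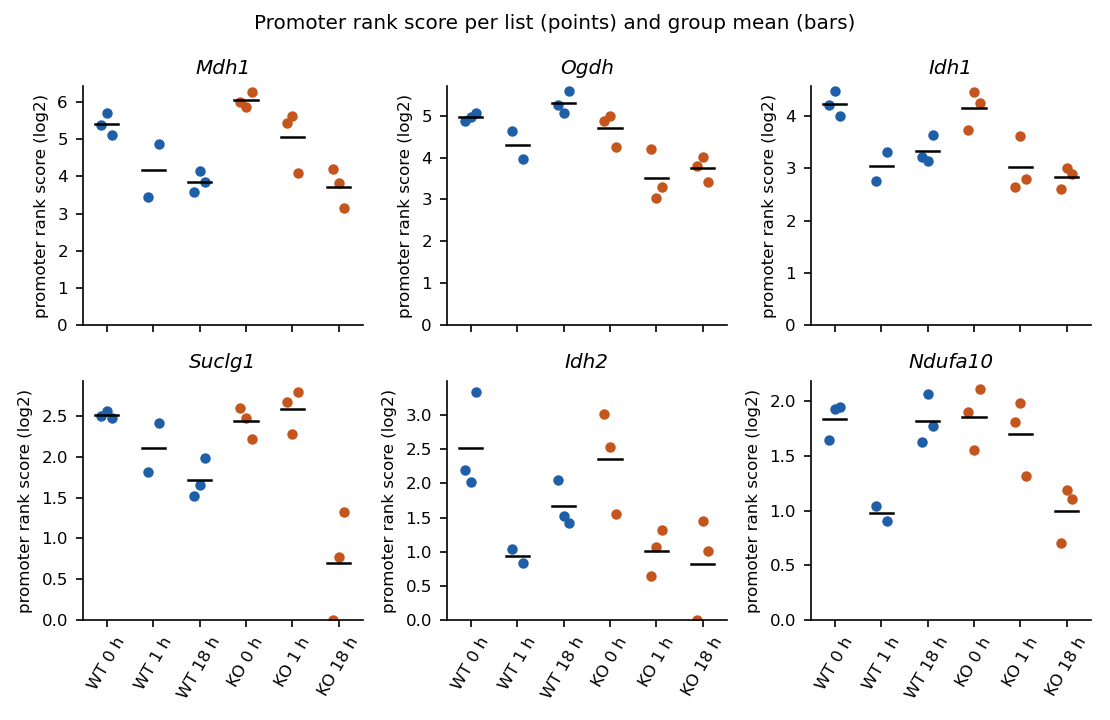
Promoter rank score (log2, vertical axis from 0) of the 6 genes that passed at 1 or 18 h, with 1 point per peak list and a bar at the group mean (3 lists per group, 2 in WT 1 h). WT is blue and KO orange. Mdh1 and Suclg1 are low at 18 h in both genotypes, and Idh2 is low at 1 h in both.

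Of the genes that were not called, Cs came nearest to a higher rank, with 0.93 ± 0.29 (SE), adjusted p = 0.0531 at 18 h. It passed as higher with depth as a covariate (0.99, adjusted p = 0.0384), and also when either WT list at 1 h, KO 0 h replicate 2 or KO 18 h replicate 2 was left out (adjusted p 0.0183 to 0.0428). In the WT lists the Cs promoter ranked 3219, 2348 and 2976 at 0 h, 4926 and 2352 at 1 h and 2362, 1461 and 2046 at 18 h, and in the KO lists 2787, 1743 and 6079 at 0 h, 2553, 2689 and 2482 at 1 h and 869, 1738 and 1305 at 18 h. The 3 KO lists at 18 h ranked it ahead of all 3 KO lists at 0 h. The largest positive difference at 1 h was at Mdh2, 0.86 ± 0.40 (SE), adjusted p = 0.146. At Fh1 it was 0.44 ± 0.23 (SE), adjusted p = 0.194. Without WT 1 h replicate 1-2, KO 1 h replicate 2 and KO 18 h replicate 1 together, the difference at Fh1 was 0.63. When WT 1 h replicate 3 was left out, Mdh2 and Cox5a passed as higher at 1 h (1.30, adjusted p = 0.049, and 1.04, adjusted p = 0.0488).

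The upstream stretches of 3 of the 5 called TCA promoters are given next, since these promoters share their direction. They were taken in the same way from RefSeq. The Mdh1 window is left out because exons cover it, and the Idh1 start because the call there belonged to the internal peak.
Suclg1 (chr6:73248255-73248381, plus strand): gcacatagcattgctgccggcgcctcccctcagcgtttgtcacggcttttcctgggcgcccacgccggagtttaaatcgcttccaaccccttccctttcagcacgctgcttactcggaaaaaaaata
Idh2 (chr7:80115393-80115600, minus strand): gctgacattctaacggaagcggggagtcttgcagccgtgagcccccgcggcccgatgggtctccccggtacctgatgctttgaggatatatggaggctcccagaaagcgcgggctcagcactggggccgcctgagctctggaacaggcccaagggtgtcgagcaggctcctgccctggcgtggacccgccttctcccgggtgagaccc
Ogdh (chr11:6291409-6291632, plus strand): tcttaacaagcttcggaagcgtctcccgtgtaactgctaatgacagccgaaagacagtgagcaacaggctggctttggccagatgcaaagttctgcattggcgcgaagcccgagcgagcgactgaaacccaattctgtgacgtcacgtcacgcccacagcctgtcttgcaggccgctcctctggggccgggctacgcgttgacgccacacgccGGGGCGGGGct
The 9 capitals in the Ogdh stretch are a match to the Sp1 motif, 37 to 29 bases before the RefSeq start, and the other 2 stretches held no match. Of the 37 genes 30 were matched by symbol to a RefSeq promoter of 300 bases (250 before and 50 after the start), as were 8223 of the 11169 genes tested. The median share of G and C was 60.5% in the members and 61.3% over all, and the median ratio of observed to expected CpG was 0.863 against 0.794. The motifs, sought on both strands, were NRF1 (GCGCANGCG), ETS (CCGGAAGT), YY1 (AAGATGGCG), ERR (TCAAGGTCA), NBRE (AAAGGTCA, the monomer motif of Nur77), Sp1 (GGGGCGGGG) and AP-1 (TGANTCA), of which ERR and NBRE share AAGGTCA. NRF1, a known regulator of respiratory chain genes, matched in 5 of the 30 (16.7%) against 15.7% of all promoters. YY1 matched in 4, all of them complex I genes (Ndufa9, Ndufs4, outside the stretch printed, Ndufs6 and Ndufs7), which is 13.3% against 3.7%. Sp1 matched in 5 (16.7% against 23.1%), ETS in 2 (6.67% against 9.89%), ERR in 1, Sdhd (3.33% against 0.255%), AP-1 in 1 (3.33% against 4.38%) and NBRE in none (0.839% of all). These shares are descriptions of letters in a window and carry no test.

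KO and WT were compared over all times to ask whether loss of Nur77 moved these promoters. No member passed (background 0.107%, 12 of 11169 promoters, with a range of 0.0717 to 0.449% when single lists were left out, the highest without WT 1 h replicate 3), and 4 of 37 (10.8%) had an unadjusted p under 0.05, beside 8.74% of all promoters. The smallest adjusted p was at Ndufs8, with -1.57 ± 0.31 (SE), adjusted p = 0.113 (exact permutation p = 0.002), where 6 of the 9 KO lists ranked the promoter behind every WT list. With depth as a covariate it was -1.15 ± 0.27 (SE), adjusted p = 0.34, and without KO 0 h replicate 1 it passed (-1.72, adjusted p = 0.0491). Next came Ogdh with -0.87 ± 0.19 (SE), adjusted p = 0.139, which passed without KO 1 h replicate 1 (-0.99, adjusted p = 0.0357). The median difference over the 37 was -0.11, and -0.07 over all genes. No member passed for a difference in LPS response between KO and WT at 1 or 18 h in limma either, where 0 of all 11169 promoters passed at either time and 4 of 37 members (10.8%) had an unadjusted p under 0.05 at each, beside 5.68% of all promoters at 1 h and 6.63% at 18 h. That count of 0 rested on single lists, since for the response at 1 h 31 promoters passed when replicate 3 of WT at 1 h was left out, 9 passed when its replicate 1-2 was left out, and 0 to 4 for any other list, and at 18 h 0 to 3 passed. The largest difference in response at 1 h was at Ndufs8 (1.79 ± 0.78 (SE), adjusted p = 0.86), and at 18 h at Cycs (-1.72 ± 1.13 (SE), adjusted p = 0.801). Among the 4 members with an unadjusted p under 0.05 at 18 h, the largest was at Ogdh, given above.

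Beyond the promoters the windows were sparse. A list held 66 to 83 matched peaks in the windows of all 37 genes, of which 35 to 39 lay at member promoters, 11 to 15 at promoters of other genes, and 18 to 30 were distal, more than 1 kb from any protein-coding start. WT lists held a mean of 21.7 ± 1.5 distal peaks (SD) without LPS, 18.5 ± 0.71 after 1 h and 24.0 ± 2.6 after 18 h, and KO lists 23.7 ± 3.5, 19.3 ± 1.2 and 28.7 ± 1.5, over 3 lists each and 2 in WT at 1 h. Merged over lists and kept where at least 2 lists had a peak, they formed 34 distal sites, 21 at TCA enzymes and 13 at respiratory chain genes. No distal site was found at 18 of the 37 genes, 1 or 2 at 15, and 3 or more at 4.

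The best ranked distal sites lay in the Sdhb window. The first, at chr4:140986450-140989843 in an intron of Atp13a2, a lysosomal transporter gene downstream of Sdhb, ranked 3414, 3123 and 3690 at 0 h, 6959 and 10798 at 1 h and 1839, 1969 and 1435 at 18 h in WT and 3668, 2447 and 1780 at 0 h, 7223, 7527 and 9266 at 1 h and 5346, 1273 and 3489 at 18 h in KO. The second, at chr4:140974819-140976408 in an intron of Sdhb, ranked 4507, 3273 and 4665 at 0 h, 14418 and 9052 at 1 h and 6402, 6840 and 5486 at 18 h in WT and 3926, 1872 and 2243 at 0 h, 8582, 6174 and 10322 at 1 h and 1435, 4871 and 4180 at 18 h in KO. At both sites every list at 1 h stood behind every list at 0 h. The differences at 1 h were -1.50 ± 0.31 (SE), adjusted p = 0.00322 and -1.58 ± 0.31 (SE), adjusted p = 0.00223, with an exact permutation p of 0.005 for each. At 18 h neither passed (0.39 ± 0.29 (SE), adjusted p = 0.396 and -0.44 ± 0.29 (SE), adjusted p = 0.333). There the WT lists stood apart from those at 0 h, ahead of them at the first site (a difference of 0.97) and behind them at the second (-0.60), while the KO lists overlapped with those at 0 h at both (-0.19 and -0.28). The difference between the genotypes in this response did not pass at either site (-1.16 ± 0.59 (SE), adjusted p = 0.79 and 0.33 ± 0.59 (SE), adjusted p = 0.985). Another strong site, intergenic at chr4:140982878-140984403, did not pass at 1 h (-0.40 ± 0.32 (SE), adjusted p = 0.398). It lies between the other 2 sites. The locus map sets them beside the Sdhb promoter.

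**Figure D4:**
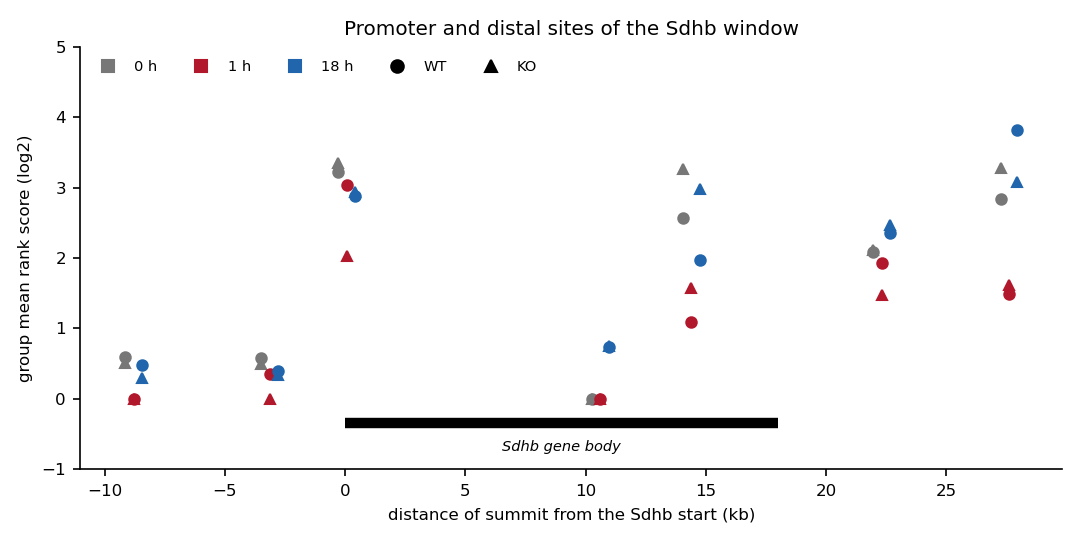
Group mean rank score (log2, vertical axis) of the Sdhb promoter and of the 6 distal sites in its window, placed by the distance of the summit from the Sdhb start in kb. Colour gives the LPS time and shape the genotype, points of 1 site are set 0.35 kb apart by time for visibility, and the red points of the sites about 14 and 28 kb from the start lie below the grey and blue ones.

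Over the 34 distal sites 7 were called lower and 1 higher at 1 h, all 8 at TCA enzymes, with complex II counted among these. The called sites of the Sdhb window would fall to the respiratory chain if complex II were counted there. Over all 23871 distal sites 12.3% were called lower and 16.1% higher. Of the 8, 1 lower and the only higher site entered the tested set, which needed a peak in 2 lists, only through the group in which they were high, so they are given without a test. The shares over all distal sites include sites of that kind. Besides the pair at Sdhb, the site in an intron of Ogdh at chr11:6299043-6300242 had a matched peak in all 6 lists at 0 h, ranking 10338 to 13993, in none of the 5 at 1 h, and in all 6 at 18 h, ranking 8492 to 20182. The score changed at 1 h by -1.01 in WT and -0.99 in KO (adjusted p = 0.00121 for both together), and the difference at 18 h was -0.05 ± 0.17 (SE), adjusted p = 0.909. An intron site of Dlst, the E2 subunit of the same enzyme complex, at chr12:85122713-85123981 ranked 12738 to 21048 in the lists at 0 h and 22141 in 1 of 5 lists at 1 h, and 3 of 6 lists had a peak at 18 h. It was lower at both times, with -0.62 ± 0.11 (SE), adjusted p = 0.00136 at 1 h and -0.54 ± 0.11 (SE), adjusted p = 0.00259 at 18 h. A site in a UTR of Padi2 within the Sdhb window (chr4:140951607-140953104) and an intergenic site near Mdh2 (chr5:135793559-135795177) were lower at 1 h, with -0.55 ± 0.11 (SE), adjusted p = 0.00218 and -0.44 ± 0.14 (SE), adjusted p = 0.0323. The second of these calls was kept in 15 of 26 alternative settings. The remaining 2 calls were low-ranked sites, in an intron of Suclg2 (chr6:95552107-95553065), present in all 6 lists at 0 h, ranking 13956 to 21810, and in no list after LPS, and an intergenic site at Idh3b (chr2:130291090-130291922), present in 1 list at 0 h, ranking 23639, and in both WT lists and 1 KO list at 1 h, ranking 15060, 17414 and 21740. These are the 2 sites that carry no test.

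At 18 h 4 distal sites were called higher and 2 lower, beside 12.5% higher and 12.5% lower over all distal sites. Of these, 2 higher and 1 lower again entered only through the group in which they were high and carry no test. The 2 lower ones were the intron sites of Dlst, tested above, and of Suclg2, untested. The largest rise was at an intergenic site in the Mdh1 window, chr11:21549232-21550779, 22171 bp from the nearest start, that of Mdh1. It had no matched peak in any of the 6 lists at 0 h, ranked 9546, 15047 and 14597 in WT and 9176, 8892 and 16727 in KO at 18 h, and was present in 3 of 5 lists at 1 h at ranks of 19586 to 23650. The difference was 1.03 ± 0.15 (SE), adjusted p = 0.000375. A second site of that window, in an intron of Wdpcp at chr11:21581282-21582210, was higher, with 0.77 ± 0.25 (SE), adjusted p = 0.0452, a call kept in 10 of 26 alternative settings. Inside Sdhb a site at chr4:140971220-140972092 had a matched peak in all 6 lists at 18 h, ranking 10508 to 20182, and in no other list. With complex II counted among TCA enzymes, only 1 of the 6 lay at a respiratory chain gene. This was an intergenic site near Ndufs3, chr2:90893744-90895063, whose nearest start is that of C1qtnf4. It was present in all 6 lists at 18 h, ranking 8892 to 16727, in none at 0 h and in 1 at 1 h. These last 2 sites are the higher ones without a test. At the Mdh1 locus the promoter shared with Wdpcp was lower at 18 h, and 2 of the 4 distal sites of the Mdh1 window were called higher.

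**Figure D5:**
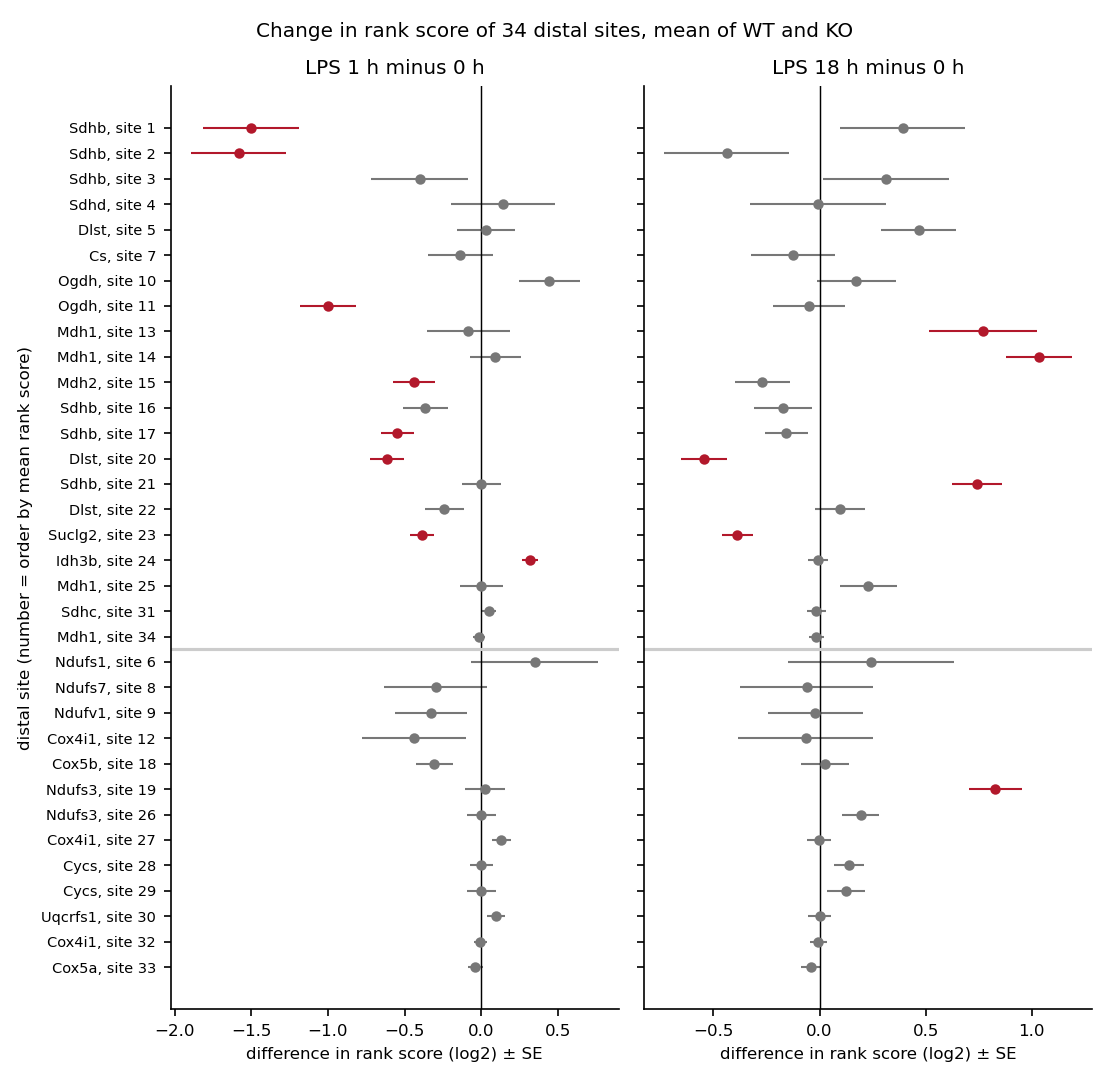
Difference in rank score (log2, horizontal axis) between LPS and 0 h of the 34 distal sites, averaged over WT and KO, with its standard error as a bar. Sites are named by the gene whose window they lie in and by their order of mean rank score. The grey line separates 21 sites at TCA enzymes (top, with the Sdhb and other complex II windows) from 13 at respiratory chain genes. Red marks adjusted p under 0.05, which at 1 h is seen in 8 sites above the line and none below it. Of these 8, 2 are sites that entered only through the group in which they were high.

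The sequence within 100 bp of the summit is given for the sites of the largest change in each direction and for the Ogdh intron site that was without a peak at 1 h. It is from GRCm38.p6, and capitals again mark motif matches.
Sdhb intron (chr4:140975497-140975697, plus strand): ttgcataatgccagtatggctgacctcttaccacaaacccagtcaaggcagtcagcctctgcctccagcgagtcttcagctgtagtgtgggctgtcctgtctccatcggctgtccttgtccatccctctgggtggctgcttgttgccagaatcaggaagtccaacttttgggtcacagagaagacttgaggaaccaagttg
Mdh1 window (chr11:21549922-21550122, plus strand): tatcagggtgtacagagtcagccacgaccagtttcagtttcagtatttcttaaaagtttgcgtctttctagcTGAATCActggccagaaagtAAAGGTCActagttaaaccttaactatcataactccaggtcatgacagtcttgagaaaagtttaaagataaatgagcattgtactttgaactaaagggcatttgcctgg
Ogdh intron (chr11:6299572-6299772, plus strand): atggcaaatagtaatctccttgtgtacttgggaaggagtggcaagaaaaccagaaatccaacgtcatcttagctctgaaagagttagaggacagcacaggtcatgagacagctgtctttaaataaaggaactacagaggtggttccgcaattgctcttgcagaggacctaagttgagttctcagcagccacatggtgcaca
The Mdh1 window site held an AP-1 match (TGAATCA), 28 to 22 bases before the summit, and an NBRE match, 8 to 1 bases before it, and the other 2 held none. AP-1 letters were found at 7 of the 34 sites (20.6%) and at 26.4% of all distal sites. NBRE letters were found at 1 of 34 (2.94%) and at 1.27% of all, and ETS letters at 2 (5.88% against 0.62%). The median share of G and C was 51.2% at the 34 sites and 49.3% over all.

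Of the other strong distal sites, 1 intergenic site in the Sdhd window (chr9:50590529-50591655) ranked 8516, 6633 and 9219 at 0 h, 2229 and 11284 at 1 h and 6880, 8498 and 4893 at 18 h in WT and 7183, 6139 and 5637 at 0 h, 9178, 7527 and 8372 at 1 h and 11542, 6227 and 6512 at 18 h in KO. A site in a coding exon of Dlst (chr12:85129272-85130259) ranked 9263, 9731 and 10431 at 0 h, 11828 and 10798 at 1 h and 6476, 7333 and 6804 at 18 h in WT and 11266, 8639 and 10715 at 0 h, 7223, 9346 and 8803 at 1 h and 13081, 6227 and 5355 at 18 h in KO. Both had a matched peak in all 17 lists and passed in no contrast.

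No distal site passed for KO against WT over all times (background 0.666%) or for its LPS response at 1 h (0.239%) or 18 h (0.0545%). With single lists left out these shares of all distal sites ranged from 0.43 to 4.2%, from 0.0843 to 4.14% and from 0.0126 to 0.529%, the first and second being highest without WT 1 h replicate 3 and the third without KO 18 h replicate 2. The number with an unadjusted p under 0.05 was 2, 1 and 1 of 34 (5.88, 2.94 and 2.94%), beside 9.99, 7.39 and 6.07% of all distal sites.

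Other genes of the same pathways, from lists fixed with earlier results of these data known, moved as follows at 1 h. Of 19 tested promoters of other TCA, pyruvate dehydrogenase and carrier genes, 6 were lower and none higher, beside the 13.9% called lower and 3.89% called higher over all promoters. The largest were at Mpc2, a subunit of the mitochondrial pyruvate carrier (-2.58 ± 0.79 (SE), adjusted p = 0.0382), and Slc25a10, the dicarboxylate carrier (-1.40 ± 0.38 (SE), adjusted p = 0.0242). Of 24 other complex I genes 2 were lower (Ndufb11 and Ndufb9), of 19 other complex III and IV genes 2 (the assembly factors Sco2 and Cox15), and of 15 ATP synthase genes 1 (Atp5l). Of 14 regulators of mitochondrial biogenesis Twnk, the mitochondrial DNA helicase, was higher (1.15 ± 0.33 (SE), adjusted p = 0.029) and Gabpb1 lower. At 18 h the TCA list had 2 lower (Slc25a11 and Pdp2), the other complex I genes 1 higher (Ndufv3, 0.93 ± 0.25 (SE), adjusted p = 0.026), the complex III and IV genes none, and the ATP synthase genes 2 lower (Atp5g2 and Atp5l) and 1 higher (Atp5j), which shares its promoter and its values with Gabpa. As a reference for the size of an LPS effect on this scale, 15 of 20 LPS response genes were higher at 1 h, with a median of 1.66 over the 20 and the 2 largest values of 4.38 ± 0.19 (SE), adjusted p = 3.46e-08 at Cxcl2 and 4.29 ± 0.49 (SE), adjusted p = 0.000118 at Nfkbia, and 9 were higher and 1 lower at 18 h, with a median of 0.97. The shares over all promoters at 18 h were 9.05% lower and 3.06% higher. No gene of these lists passed for KO against WT (background 0.107%).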

How the data were processed

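ATAC-seq peak lists of 17 BMDM samples were used. Per the labels and the study's methods, the authors trimmed reads with cutadapt (2.6), mapped them to mm10, removed mitochondrial reads and duplicates, called peaks per sample at a q-value of 0.001 and compared groups with DiffBind (3.0.15), which needs reads and was not rerun. The score column in the deposited lists is the −log10 q-value multiplied by 10 and cut to a whole number. The authors' fold column is a ratio of pileup to background, and the authors' p-value and q-value columns are −log10 values. All of these depend on depth, so they served only to rank peaks inside a list.

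Entries with a common interval were collapsed to the best summit, ties at rank 24389 were broken at random (seed 1), and tied ranks were averaged. Rank scores were fitted with limma (3.58.1), 6 group means over all 17 lists, with Benjamini-Hochberg adjustment over all 11169 promoters or all 34178 consensus sites and a threshold of 0.05. This differs from the authors' count-based test, since lists hold no counts. Exact permutation tests were two-sided and regrouped lists within genotype or time. The fit was also run on simulated scores with independent normal noise and no effect of depth, which does not check the calls made here. Depth was recovered from fold and p-value, as the background level that turns all pileups into whole reads under a Poisson model, per kb of the shortest peak; that model is an assumption. The peak caller is not given in the sources used here. Values were printed by list for genes or sites that passed, up to 12 and 10 by size of difference, for the best and weakest promoter of each role, for genes without a matched peak in some list and for the 5 best distal sites. The members, pathway lists and markers were chosen with earlier results of these data known, and 1 gene of the pathway lists and 1 marker are not reported here. Alternatives changed the number of peaks, scale, promoter and window size, site presence and overlap, depth, pairing and the lists included.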

Additional observations from a re-analysis of the deposited data

How the results depend on the processing

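No alternative reversed the direction of a reported call. Most counts below stand without the share over all promoters or distal sites in the same setting. That share changed too where it is given, so these counts are not set against a background. Promoters called at 1 h numbered 5, and 8 with all deposited peaks, 1 with depth as a covariate and 2 with promoters within 500 bp. At 18 h 4 were called, and 2 within 500 bp, 5 with depth as a covariate, Cs being added as higher, and 6 with all deposited peaks, Cox4i1 and Cox6c being added as lower. Distal sites called at 1 h numbered 8, and 2 with the 10000 best peaks, 16 with all deposited peaks, 5 in a window of 5 kb and 27 in one of 50 kb. At 18 h 6 were called, and 1, 15 and 21 with the 10000 best peaks, all peaks and 50 kb, and 3 among sites in at least 8 lists. For KO against WT 0 distal sites were called, and 1 with all peaks, with sites in at least 1 list, in a 50 kb window or with limma-trend, and 2 where a peak had to cover 50% of a site, a setting that called 3.57% of all distal sites, against 0.666% without it. The response at 1 h had 0, and 1 with sites in at least 1 list or limma-trend, and that at 18 h 0, and 1 with all peaks or 50% cover. Without WT 1 h replicate 1-2, KO 1 h replicate 2 and KO 18 h replicate 1 together, 1 distal site passed for KO against WT and 1 for the response at 1 h. The last set, limma-trend and any summit of an interval were chosen after seeing the data. Leaving out each list in turn gave 3 to 7 promoters and 7 to 10 distal sites at 1 h, 3 to 5 and 5 to 8 at 18 h, 0 to 1 and 0 to 1 for KO against WT, and 0 to 2 and 0 to 1 distal sites for the responses at 1 and 18 h. The 3 at 1 h came without WT 0 h replicate 1 or 2, KO 0 h replicate 1 or KO 1 h replicate 3, where Mdh1 and Ndufa10 did not pass. The cause was not tested, except that the 500 bp limit changes which Idh1 peak is used.

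In their deviations from the group means, lists of the same replicate number were not more alike than others. The 35 pairs of the same number had a median correlation of 0.0046 (-0.244 to 0.252, 5 over 0.1). The 70 others had 0.0077 (-0.301 to 0.405, 13 over 0.1). Shared variation of other kinds could hide a pairing, so this check does not exclude one. With a replicate block, which leaves out WT 1 h replicate 1-2, 2 promoters were called at 1 h and 3 at 18 h, with 7 and 5 distal sites. A weak peak can be missed in the shallow lists.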
